A study of Mus musculus with 6 samples.

Results

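The genes of oxidative phosphorylation subunits were taken by symbol: those starting with Nduf but not Ndufaf (complex I), Sdha to Sdhd (complex II), Uqcr and Cyc1 (complex III), Cycs (cytochrome c), Cox followed by a digit from 4 to 8 (complex IV), and Atp5 (complex V, the ATP synthase). The rule found 83 genes among the 18029 genes measured: 35 of complex I, 4 of complex II, 9 of complex III, 17 of complex IV, 17 of complex V and Cycs. They had 170 of the 38195 probe sets tested. Each gene was represented by its brightest probe set, and a deposited value is a log2 signal, so that a difference of 1 is a doubling of signal. The subunits encoded by mitochondrial DNA were not analysed here.

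Signal was measured in the hearts of 3 Tmbim1 KO mice and 3 Flox wild type mice, 1 array per mouse. All 6 mice were on a C57BL/6 background, were 8 weeks old and had carried an aortic band for 2 weeks (the labels write "binding"), a constriction against which the left ventricle must pump. Tmbim1 encodes a protein that sits in the membranes of endosomes and lysosomes. The wild type animals carry the name Flox, and neither the Cre line, the cells in which Tmbim1 was deleted nor litter relations are given in the sources used here. No hearts without surgery were analysed here, and all values compare genotypes within banded hearts.

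In the inner mitochondrial membrane, complexes I and II pass electrons from NADH and succinate to ubiquinone, complex III passes them to cytochrome c, and complex IV passes them to oxygen. Complexes I, III and IV pump protons, and complex V lets the protons flow back and makes ATP. Heart muscle depends on this pathway for most of its ATP, and it builds complex IV largely with muscle forms of a few subunits for which other tissues use ubiquitous paralogues.

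Tmbim1 had 7.53, 7.49 and 7.56 in KO hearts, against 8.58, 8.38 and 8.33 in wild type hearts. The difference of -0.91 (SE 0.10) had a limma adjusted p of 0.00579. All 6 arrays correlated with one another at 0.9891 to 0.9956. The 10 cardiomyocyte markers averaged 9.93 to 13.6 in KO hearts and 10.3 to 13.7 in wild type hearts, so the samples carried the RNA of heart muscle. KO replicate 1 stood apart by atrial markers: the 5 of them lay at a median of 6.97 above their mean over the arrays there, and at -1.51 to -1.14 on the other 5 arrays. Over all probe sets, 161 of 38195 (0.422%) differed between the groups at a limma adjusted p of 0.05, and 99 of the 18029 genes (0.549%) did so at the brightest probe set.

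None of the 83 subunit genes passed that threshold at the brightest probe set, and the smallest adjusted p was 0.286, for Sdha. The differences leaned one way, however: 74 of 83 were negative, where 50.6% of all genes were, and their median was -0.086, against -0.0020 over all genes. They ran from -0.35 for Sdha to 0.21 for Cox6a1, and the standard errors of single genes were 0.088 to 0.19. At an unadjusted limma p under 0.05, 6 genes stood lower in KO hearts (Ndufv1, Ndufs1, Ndufs7, Sdha, Sdhc and Cox7a1) and 1 higher (Cox6a1). Of all genes, 6.33% and 5.19% passed in those directions, so the 6 lay near the share of all genes. Among the 2689 genes above the 90th percentile of mean signal, 292 passed lower and 207 higher. All 7 subunit genes were among the 75 that bright. The design gives 3 hearts against 3, and in bulk hearts fewer cardiomyocytes and less RNA per cardiomyocyte cannot be told apart.

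**Figure D1:**
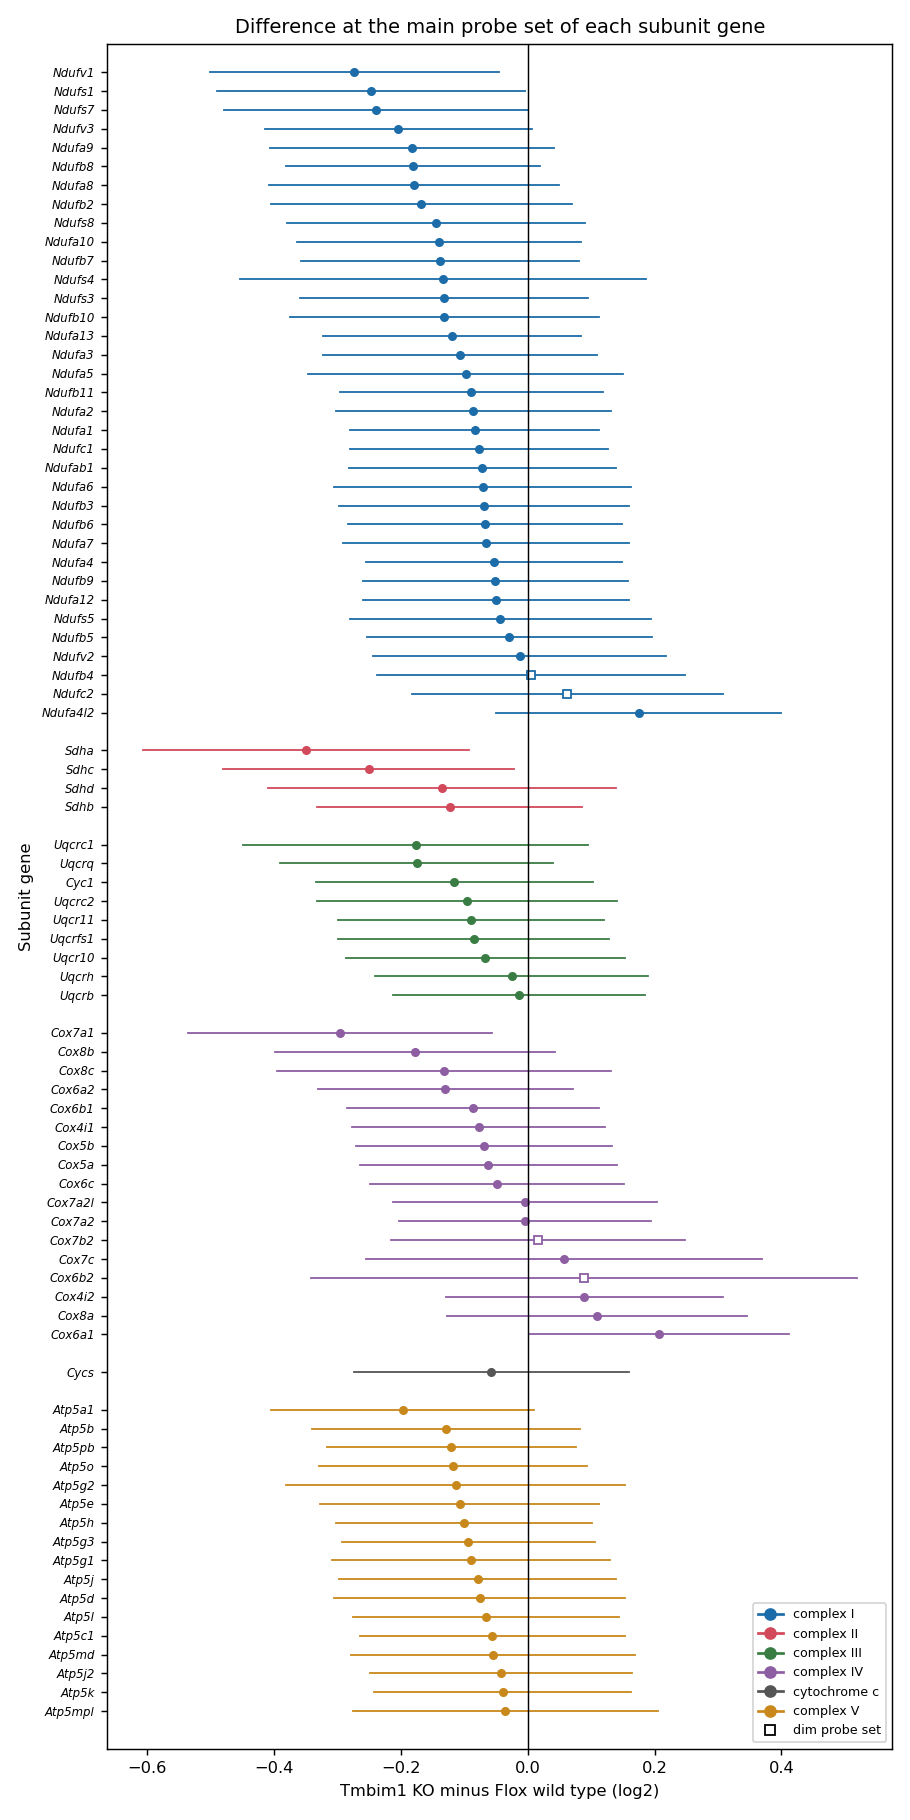
KO minus wild type difference in log2 signal (x axis) at the brightest probe set of each of the 83 subunit genes (y axis), grouped by complex; bars are 95% confidence intervals of the limma fit and open squares mark the 4 genes with a dim probe set. Points lie left of 0 for 74 genes, with Sdha at -0.35 at one end and Cox6a1 at 0.21 at the other.

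Every KO array lay below every wild type array for 22 of the 83 genes, against 9.38% of all genes, and above for 2, Ndufa4l2 and Cox6a1, against 7.34%. Bright genes separated more often in general: 15.2% of the 2689 genes above the 90th percentile of mean signal had all KO arrays below all wild type arrays, and 75 of the 83 subunit genes were that bright. Of these 75, 22 (29.3%) separated that way. The median of the 83 genes, each set against its own mean over the arrays, was -0.061, -0.030 and -0.036 on the KO arrays and -0.041, 0.067 and 0.11 on the wild type arrays. Wild type replicate 1 thus lay among the KO hearts. Without it 58 genes separated downward, where 15.9% of all genes did, and the median difference was -0.127. This array was picked for its place among the KO hearts, so a higher count without it follows from the choice. The share among bright genes was not analysed here for arrays left out. Without KO replicate 1 alone, 23 genes separated downward, where 13.4% of all genes did, and the median was -0.071. Without KO replicate 1 and wild type replicate 3, 24 did, where 18.8% of all genes did, and the median was -0.053. A second quantile normalization of the deposited values left 13 such genes, where 9.56% of all genes did so, and a median of -0.056.

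**Figure D2:**
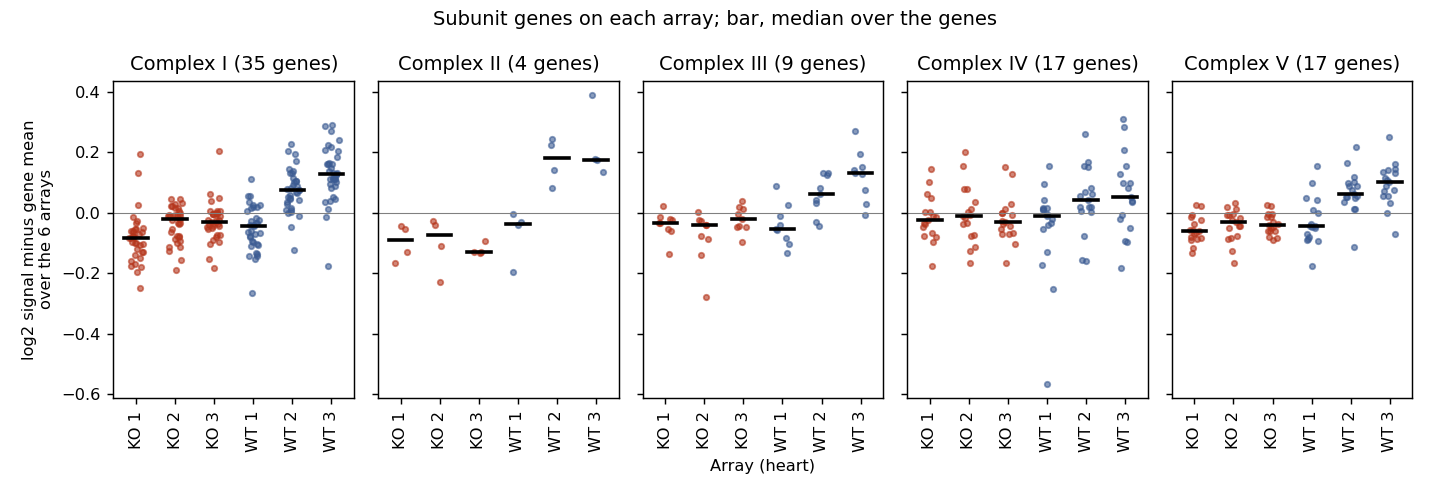
Log2 signal of each subunit gene minus its mean over the 6 arrays (y axis) on each array (x axis, KO arrays left of wild type arrays), one panel per complex; points are genes and black bars their medians. The medians of wild type replicates 2 and 3 sit highest in every complex, while wild type replicate 1 sits close to the 3 KO arrays.

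Complex II, the succinate dehydrogenase that also serves the citric acid cycle, had the most negative median of the complexes, -0.19 over its 4 genes. Sdha, the flavoprotein that oxidises succinate, had 10.99, 10.92 and 11.02 in KO hearts, against 11.15, 11.29 and 11.54 in wild type hearts. The groups did not overlap, and the difference was -0.35 (SE 0.12, 95% interval -0.61 to -0.093, limma adjusted p = 0.286), a 1.27-fold lower signal in KO hearts. A second bright Sdha probe set read 10.70, 10.69 and 10.78 in KO hearts and 10.87, 11.10 and 11.31 in wild type hearts, a difference of -0.37 (SE 0.12).

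Sdhc, one of the anchors that hold the enzyme in the membrane and bind ubiquinone, had 9.63, 9.65 and 9.63 in KO hearts, against 9.72, 10.01 and 9.94 in wild type hearts. The 3 KO values were almost equal and lay below all wild type values, with a difference of -0.25 (SE 0.10, limma adjusted p = 0.417). Sdhb, the iron-sulfur subunit, had 12.50, 12.52 and 12.46 in KO hearts and 12.52, 12.64 and 12.69 in wild type hearts, a difference of -0.12 (SE 0.093). Its groups were separated by less than 0.01. Sdhd, the other anchor, had 10.96, 10.98 and 10.87 in KO hearts and 10.81, 11.23 and 11.18 in wild type hearts. These overlapped, with wild type replicate 1 the lowest of the 6, and the difference was -0.14 (SE 0.12). A dimmer second Sdhd probe set had 7.63, 7.60 and 7.58 in KO hearts and 7.78, 7.91 and 7.82 in wild type hearts. There the groups did not overlap, and the difference was -0.23 (SE 0.091, limma adjusted p = 0.395).

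Complex I, which oxidises NADH, had a median of -0.089 over 35 genes, of which 32 had negative differences. Without wild type replicate 1 the median was -0.140, and without both KO replicate 1 and wild type replicate 3 it was -0.048. All KO arrays lay below all wild type arrays for 9 of its genes (25.7%) and above for Ndufa4l2. Of all genes, 9.38% lay below and 7.34% above, and 15.2% of the 2689 brightest genes lay below. The 6 measured core subunits of complex I, which form the catalytic part shared with bacteria, had a median of -0.19, against -0.086 over the 27 accessory subunits.

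Among the core subunits, Ndufv1, which binds the flavin where NADH is oxidised, had 11.78, 11.72 and 11.73 in KO hearts, against 11.99, 11.89 and 12.17 in wild type hearts. The difference was -0.27 (SE 0.10, 95% interval -0.50 to -0.045, limma adjusted p = 0.359), with no overlap between the groups. Its other 2 probe sets gave -0.30 and -0.24, again without overlap. Ndufs1, which carries several of the iron-sulfur clusters, had 11.03, 10.97 and 10.91 in KO hearts and 11.05, 11.22 and 11.38 in wild type hearts (difference -0.25, SE 0.11, limma adjusted p = 0.461). Ndufs7, which holds the last cluster before ubiquinone, had 11.25, 11.24 and 11.43 in KO hearts and 11.47, 11.48 and 11.70 in wild type hearts (difference -0.24, SE 0.11, limma adjusted p = 0.473). In these 2 genes the groups touched, with the highest KO heart just under the lowest wild type heart.

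The other core subunits, Ndufs8, Ndufs3 and Ndufv2, overlapped between the groups, with differences from -0.14 to -0.013. Of the accessory subunits, Ndufv3 had the most negative difference, with 12.12, 12.17 and 12.16 in KO hearts and 12.28, 12.33 and 12.46 in wild type hearts (difference -0.20, SE 0.094, limma adjusted p = 0.490). Ndufa9, Ndufb8, Ndufa13, Ndufa1 and Ndufc1 also separated downward, by -0.18 to -0.076. The remaining accessory subunits overlapped, with differences from -0.18 to 0.062. Ndufb4 and Ndufc2, which heart muscle needs for a complete complex I, were measured only by dim probe sets under the 40th percentile of mean signal (3.606), and their values say little about their RNA.

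Ndufa4l2, a paralogue of Ndufa4 known from hypoxic cells, ran the other way, at 6.60, 6.61 and 6.78 in KO hearts and 6.48, 6.58 and 6.40 in wild type hearts (difference 0.17, SE 0.10, limma adjusted p = 0.616). Ndufa4 itself, counted here by its symbol although its protein is now placed in complex IV, had 12.58, 12.60 and 12.57 in KO hearts and 12.57, 12.69 and 12.65 in wild type hearts. That is a difference of -0.054, and the groups overlapped. Within each array, Ndufa4l2 minus Ndufa4 was -5.93 ± 0.11 in KO hearts and -6.15 ± 0.09 in wild type hearts (SD, n = 3 each), a difference of 0.23 (exact permutation p = 0.1, the smallest that 3 against 3 allows).

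In complex III all 9 genes had negative differences, with a median of -0.090, but the groups separated for Uqcrq alone. That is 11.1% of its genes, near the 9.38% of all genes and 15.2% of the 2689 brightest genes that separated downward. Leaving out wild type replicate 3 gave a median of -0.047, and leaving out wild type replicate 1 gave -0.137. Uqcrq, a small subunit beside cytochrome b, had 11.72, 11.78 and 11.81 in KO hearts and 11.85, 11.94 and 12.05 in wild type hearts (difference -0.18, SE 0.097, limma adjusted p = 0.590). Uqcrc1, a core protein of the matrix arm, had 12.00, 11.74 and 12.06 in KO hearts and 12.05, 11.99 and 12.29 in wild type hearts. The difference was also -0.18 (SE 0.12), with KO replicate 2 far below the other KO hearts.

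Cyc1, the cytochrome c1 that hands electrons to cytochrome c, had 12.00, 11.91 and 12.07 in KO hearts and 12.14, 12.01 and 12.18 in wild type hearts (difference -0.12, SE 0.098). Uqcrb, which helps bind ubiquinone, had 13.36, 13.39 and 13.40 in KO hearts and 13.35, 13.43 and 13.42 in wild type hearts (difference -0.014). Uqcr11 had 12.12, 12.15 and 12.13 in KO hearts and 12.12, 12.24 and 12.31 in wild type hearts. Its difference was -0.090 (SE 0.094), and the groups overlapped. Uqcrc2, Uqcrfs1, Uqcr10 and Uqcrh had differences from -0.096 to -0.025. Cycs, cytochrome c itself, had 12.60, 12.62 and 12.72 in KO hearts and 12.65, 12.82 and 12.65 in wild type hearts, a difference of -0.057 (SE 0.097), and the groups overlapped.

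In complex IV the signs were mixed: 11 of 17 differences were negative and 6 positive, with a median of -0.048. Of the 6 positive genes, Cox7b2, Cox6b2, Cox7c and Cox4i2 had dim signals, with KO means from 2.53 to 4.67. Only Cox8a and Cox6a1 were bright, with KO means of 10.37 and 11.62. KO arrays lay below wild type arrays for 5 genes (Cox7a1, Cox8b, Cox6a2, Cox6b1 and Cox4i1) and above for Cox6a1. The 5 genes are 29.4% of the complex, where 9.38% of all genes and 15.2% of the 2689 brightest separated downward. The 3 muscle forms Cox6a2, Cox7a1 and Cox8b all separated downward, with a median of -0.18, and their ubiquitous paralogues Cox6a1, Cox7a2 and Cox8a had a median of 0.11. For Cox8b the groups touched, with KO replicate 3 at 12.607 and wild type replicate 1 at 12.609.

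Cox7a1, the muscle form of subunit VIIa, had 11.90, 11.91 and 11.97 in KO hearts, against 12.06, 12.23 and 12.39 in wild type hearts. The difference was -0.30 (SE 0.11, 95% interval -0.54 to -0.057, limma adjusted p = 0.340), a 1.23-fold lower signal in KO hearts. Its ubiquitous partner Cox7a2 had 12.62, 12.68 and 12.64 in KO hearts and 12.62, 12.66 and 12.68 in wild type hearts, a difference of -0.0041 (95% interval -0.20 to 0.19).

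Cox6a1, the ubiquitous form of subunit VIa, had 11.62, 11.60 and 11.65 in KO hearts, against 11.39, 11.36 and 11.50 in wild type hearts. It was the most positive difference of the 83 genes, 0.21 (SE 0.092, 95% interval 0.0021 to 0.41, limma adjusted p = 0.467). A second Cox6a1 probe set gave 0.16 with overlapping groups. The muscle form Cox6a2 had 12.91, 12.88 and 12.88 in KO hearts and 12.97, 13.01 and 13.08 in wild type hearts (difference -0.13, SE 0.090, limma adjusted p = 0.698), and its second probe set gave -0.19.

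Cox8b, the muscle form of subunit VIII in the mouse, had 12.56, 12.55 and 12.61 in KO hearts and 12.61, 12.83 and 12.82 in wild type hearts (difference -0.18, SE 0.099, limma adjusted p = 0.594). Its ubiquitous partner Cox8a had 10.32, 10.52 and 10.28 in KO hearts and 10.14, 10.34 and 10.31 in wild type hearts, a difference of 0.11 (SE 0.11), and the groups overlapped.

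Subtracting the ubiquitous from the muscle form within each array removes only a shift that is equal for both genes. It does not remove a shift that depends on signal or a difference in the mix of cells. The part of either in these differences was not tested. Cox6a2 minus Cox6a1 was 1.28, 1.28 and 1.23 in KO hearts, against 1.58, 1.65 and 1.58 in wild type hearts, a difference of -0.34 that was far wider than the spread of either group (SD 0.027 and 0.038). Cox7a1 minus Cox7a2 was -0.72, -0.77 and -0.67 in KO hearts and -0.56, -0.42 and -0.30 in wild type hearts, a difference of -0.29. Cox8b minus Cox8a was 2.24, 2.03 and 2.33 in KO hearts and 2.46, 2.49 and 2.50 in wild type hearts, also -0.29. Wild type replicate 1, which lay with the KO hearts over the whole pathway, lay with the wild type hearts in Cox6a2 minus Cox6a1 and Cox8b minus Cox8a. In Cox7a1 minus Cox7a2 it lay between the groups, nearer to the highest KO heart than to the next wild type heart.

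Of the 7 pairs of paralogues compared, 4 did not overlap between the groups: these 3 and Ndufa4l2 with Ndufa4. The share of gene pairs that separate in general was not analysed here, so this count has no background. The 4 pairs also reuse genes that separated singly: Cox6a2, Cox6a1, Cox7a1, Cox8b and Ndufa4l2. Each of the 4 had an exact two-sided permutation p of 0.1, the smallest possible with 3 against 3, or 0.175 after Benjamini-Hochberg adjustment over the 7 pairs, so none could pass 0.05. Cox4i2, the lung and hypoxia form of subunit IV, minus Cox4i1 was -8.24 ± 0.12 in KO hearts and -8.40 ± 0.10 in wild type hearts (SD, n = 3 each, difference 0.17, exact permutation p = 0.2). Cox6b2, the testis form of subunit VIb, was under the 40th percentile of mean signal, and Cox6b2 minus Cox6b1 differed by 0.17 with an SD of 0.43 in wild type hearts (exact permutation p = 0.8). Atp5g1 minus Atp5g3, 2 genes for the same mature c-ring protein, differed by 0.0041 (exact permutation p = 1).

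**Figure D3:**
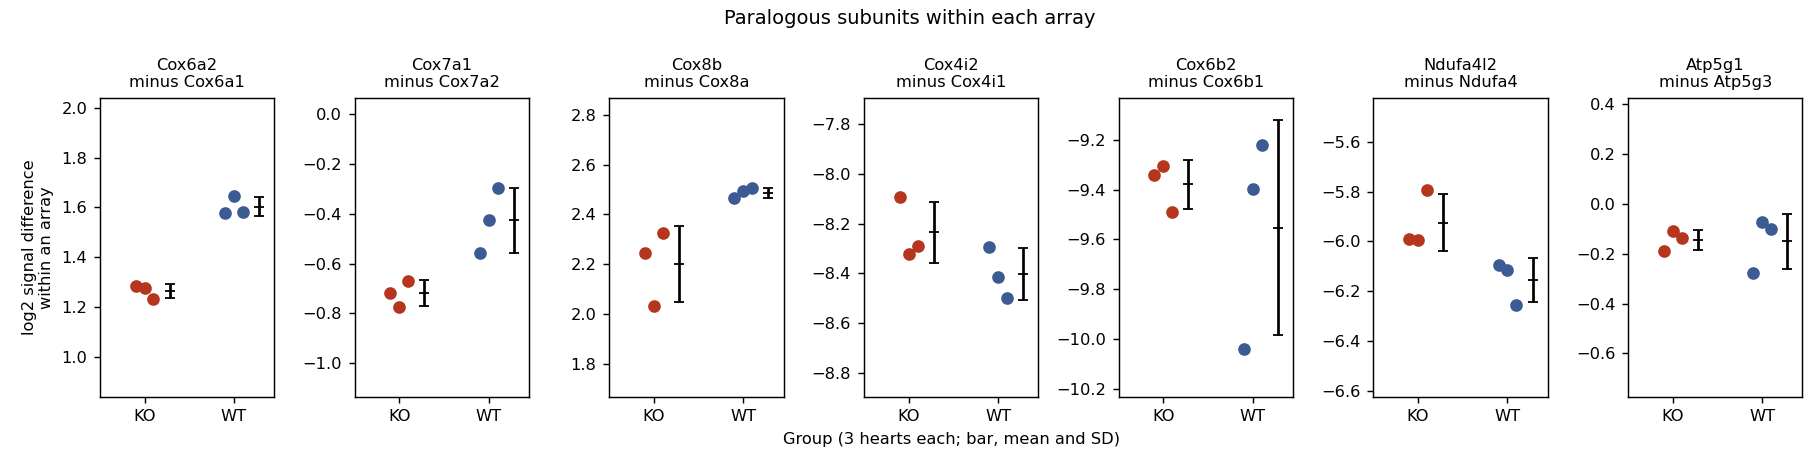
Log2 signal of one paralogue minus that of its partner within each array (y axis) for the 7 pairs, KO hearts left of wild type hearts; points are hearts, and the bar beside each group is its mean with SD. Cox6a2 minus Cox6a1 was 1.26 ± 0.03 in KO hearts and 1.60 ± 0.04 in wild type hearts, and the 3 muscle minus ubiquitous differences are all lower in KO hearts.

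The common subunits of complex IV lay close together. Cox4i1, its largest nuclear subunit, had 12.86, 12.91 and 12.94 in KO hearts and 12.96, 12.96 and 13.02 in wild type hearts (difference -0.078, SE 0.090). Cox6b1, which links the dimer on the cytochrome c side, had 12.84, 12.91 and 12.87 in KO hearts and 12.93, 13.00 and 12.96 in wild type hearts (difference -0.086, SE 0.089). Cox5a, Cox5b and Cox6c overlapped, with differences from -0.069 to -0.048. Cox7a2l differed by -0.0050. Cox7c, a common subunit, read only 4.30 in KO hearts and 4.25 in wild type hearts at the brighter of its probe sets, and the testis forms Cox7b2 and Cox8c also gave overlapping values.

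The ATP synthase showed a narrow range, about as wide as that of complex III (-0.18 to -0.014). All 17 differences were negative, between -0.20 and -0.035, with a median of -0.090. KO arrays lay below wild type arrays for Atp5a1, Atp5pb, Atp5h and Atp5g3. These are 23.5% of the complex, where 9.38% of all genes and 15.2% of the 2689 brightest separated downward. The 5 subunits of the catalytic F1 head had a median of -0.11, and the 12 others, of the stalks, the c-ring and the membrane part, had -0.084.

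Atp5a1, the alpha subunit of the head, had 12.65, 12.56 and 12.66 in KO hearts, against 12.82, 12.76 and 12.89 in wild type hearts. The groups did not overlap, and the difference was -0.20 (SE 0.093, limma adjusted p = 0.500). Atp5b, the catalytic beta subunit, had 12.94, 12.79 and 12.83 in KO hearts and 12.93, 12.97 and 13.05 in wild type hearts (difference -0.13, SE 0.095), with KO replicate 1 above wild type replicate 1. Atp5pb, the b subunit of the outer stalk, had 12.31, 12.29 and 12.33 in KO hearts and 12.42, 12.43 and 12.44 in wild type hearts. That difference of -0.12 (SE 0.088, limma adjusted p = 0.720) rested on SDs of 0.021 in KO hearts and 0.011 in wild type hearts and had the smallest standard error of the 83 genes.

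Atp5o, which joins the outer stalk to the head, had 12.46, 12.50 and 12.50 in KO hearts and 12.49, 12.63 and 12.69 in wild type hearts, a difference of -0.12 (SE 0.095). Atp5mpl, a small membrane subunit, had 11.25, 11.23 and 11.25 in KO hearts and 11.17, 11.48 and 11.19 in wild type hearts (difference -0.035). Atp5g3 had 12.93, 12.88 and 12.95 in KO hearts and 13.01, 12.98 and 13.05 in wild type hearts (difference -0.094, SE 0.090).

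Of the 170 probe sets of the pathway, 1 passed the adjusted threshold, where 161 of all 38195 (0.422%) did. It was a second probe set of Atp5g1, with 2.87, 3.10 and 3.36 in KO hearts and 3.74, 3.97 and 4.02 in wild type hearts (difference -0.80, SE 0.14, limma adjusted p = 0.0451). This probe set lies under the 40th percentile of mean signal, and the bright Atp5g1 probe set had 12.74, 12.77 and 12.82 in KO hearts and 12.73, 12.91 and 12.95 in wild type hearts, a difference of -0.090 (SE 0.098). Where the 2 probe sets lie in the gene was not analysed here. Of the 76 further probe sets of subunit genes above the 40th percentile, 73 had the same sign as the main probe set of their gene, which measures the same 6 RNA samples.

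Promoters of 67 of the 83 genes were found in the RefSeq promoter table (build GRCm38.p6), from 250 bases before to 50 bases after the start. Letters of motifs named for 5 factors were searched on both strands. GCGCANGCG, named for NRF1, was in 19 of the 67 (28.4%), against 7.03% of all 27025 genes in the table. AANATGGC, named for YY1, was in 15 (22.4%), against 6.96%. TNAAGGTCA, named for the estrogen-related receptors, was in 3 (4.48%), against 1.43%. CCGGAAGTG, named for GABPA, was in 2 (2.99%), against 2.25%, and GGGCGGGGC, named for SP1, was in 7 (10.4%), against 12.4%. Matches of different motifs may overlap. The 19 genes with the NRF1 letters had a median difference of -0.094, and the 48 without had -0.082. For the YY1 letters the medians were -0.12 with and -0.074 without, and for the SP1 letters -0.12 and -0.078. The 3 genes with the receptor letters had -0.094 (-0.085 without), and the 2 with the GABPA letters -0.079 (-0.086 without). A match is a run of letters and not a binding site.

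The 180 bases before the start are shown for the succinate dehydrogenase genes with the NRF1 letters, for Atp5g3, where the receptor letters lie before the start, for Cox6a1, whose difference was the most positive, and for the muscle and ubiquitous pairs with an entry for both. Capitals mark NRF1 letters in Sdha, Sdhd and Cox6a1 and receptor letters, on the opposite strand, in Atp5g3. In Sdha they start at -98, -55 and -10, and in Sdhd at -79. In Cox6a1 matches on both strands overlap at -162 and -161, and another starts at -117. In Atp5g3 the match starts at -52. Past the start and outside the stretch shown, Sdhd also held the receptor letters at 37 and Atp5g3 the NRF1 letters at 14. Cox7a1, Cox7a2, Cox8a and Cox8b held none of the 5 motifs in the 300-base window, and the last 2 pairs of lines set each muscle form beside its ubiquitous partner.
Sdha, chr13:74350241-74350420, minus strand: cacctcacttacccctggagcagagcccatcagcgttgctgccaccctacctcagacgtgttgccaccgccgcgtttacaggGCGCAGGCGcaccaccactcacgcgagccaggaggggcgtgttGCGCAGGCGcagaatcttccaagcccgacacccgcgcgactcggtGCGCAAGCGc
Sdhd, chr9:50603850-50604029, minus strand: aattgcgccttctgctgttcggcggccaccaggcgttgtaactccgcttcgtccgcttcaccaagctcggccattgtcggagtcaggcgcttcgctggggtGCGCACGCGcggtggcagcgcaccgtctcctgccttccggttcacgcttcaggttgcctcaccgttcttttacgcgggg
Atp5g3, chr2:73911327-73911506, minus strand: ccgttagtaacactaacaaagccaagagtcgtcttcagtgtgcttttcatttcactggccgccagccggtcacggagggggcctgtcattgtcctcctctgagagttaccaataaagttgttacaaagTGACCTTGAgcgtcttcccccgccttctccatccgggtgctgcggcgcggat
Cox6a1, chr5:115348959-115349138, minus strand: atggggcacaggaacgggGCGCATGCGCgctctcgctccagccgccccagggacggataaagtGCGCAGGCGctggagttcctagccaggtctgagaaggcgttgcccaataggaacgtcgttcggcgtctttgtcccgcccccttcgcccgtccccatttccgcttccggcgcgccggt
Cox7a1, chr7:30183991-30184170, plus strand: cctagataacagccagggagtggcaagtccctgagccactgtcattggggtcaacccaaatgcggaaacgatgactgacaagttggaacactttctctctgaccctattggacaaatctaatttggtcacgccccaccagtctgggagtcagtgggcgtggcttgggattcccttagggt
Cox7a2, chr9:79759854-79760033, minus strand: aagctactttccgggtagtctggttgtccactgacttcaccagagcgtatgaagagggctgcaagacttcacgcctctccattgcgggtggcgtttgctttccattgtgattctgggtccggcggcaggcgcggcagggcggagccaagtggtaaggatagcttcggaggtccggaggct
Cox8b, chr7:140900447-140900626, minus strand: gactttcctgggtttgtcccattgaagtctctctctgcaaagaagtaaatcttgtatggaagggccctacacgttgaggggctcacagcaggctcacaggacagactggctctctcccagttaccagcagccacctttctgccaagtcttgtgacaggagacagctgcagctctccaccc
Cox8a, chr19:7217617-7217796, minus strand: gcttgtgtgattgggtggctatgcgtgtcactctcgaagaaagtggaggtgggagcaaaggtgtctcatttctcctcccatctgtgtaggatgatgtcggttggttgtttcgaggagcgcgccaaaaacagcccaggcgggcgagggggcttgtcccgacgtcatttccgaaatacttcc

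Genes that serve the same mitochondria were counted from lists chosen apart from the subunits. None of the 44 assembly factors measured passed the adjusted threshold in either direction, 26 had negative differences, and their median was -0.019. The smallest unadjusted p among them belonged to Cox10, which makes haem for complex IV and had 7.09, 7.24 and 7.52 in KO hearts and 7.82, 7.63 and 7.65 in wild type hearts (difference -0.41, SE 0.12, limma adjusted p = 0.239). The 76 mitochondrial ribosomal proteins, which build the ribosome that translates the mitochondrial subunits, had 0 calls, 51 negative differences and a median of -0.062. The 17 carriers and import proteins had 0 calls, 11 negative differences and a median of -0.031. Opa1, the fusion protein that shapes the cristae, had 9.40, 9.47 and 9.38 in KO hearts and 9.74, 9.71 and 9.78 in wild type hearts (difference -0.33, SE 0.090, limma adjusted p = 0.195).

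The 12 citric acid cycle enzymes outside complex II had 0 calls, 12 negative differences and a median of -0.22, more than the -0.19 of complex II. Suclg2, Sucla2 and Suclg1 encode subunits of the enzymes that make succinate from succinyl-CoA. Suclg2 had 9.69, 9.68 and 9.79 in KO hearts, against 10.00, 10.19 and 10.33 in wild type hearts (difference -0.45, SE 0.11, limma adjusted p = 0.144). The brighter Sucla2 averaged 11.20 in KO hearts and 11.37 in wild type hearts, a difference of -0.17 with overlapping groups. Suclg1 differed by -0.25 without overlap. Dlst and Ogdh, of the enzyme complex that makes succinyl-CoA, differed by -0.37 and -0.42.

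Among 14 transcriptional regulators of mitochondrial genes there were 0 calls, 12 negative differences and a median of -0.23. Ppargc1a, the coactivator PGC-1 alpha, had 8.09, 7.39 and 7.61 in KO hearts and 8.13, 8.06 and 8.58 in wild type hearts (difference -0.56, SE 0.19, limma adjusted p = 0.302), and the groups overlapped. Esrrg, an estrogen-related receptor that binds promoters of these genes in the heart, had 6.76, 6.73 and 6.75 in KO hearts and 7.10, 6.99 and 7.03 in wild type hearts (difference -0.29, SE 0.090, limma adjusted p = 0.256). Ppara, a receptor that drives fatty acid oxidation, differed by -0.46.

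Markers of heart cell types are set beside the subunits. All 10 cardiomyocyte markers had negative differences, with 0 calls and a median of -0.13, and 8 of them had every KO array below every wild type array, as 15.2% of the 2689 brightest genes did. Relative to the mean of the 6 arrays their median was -0.066, -0.073 and -0.020 on KO arrays and 0.033, 0.045 and 0.077 on wild type arrays. Ryr2, the calcium release channel, had 9.98, 9.86 and 9.95 in KO hearts and 10.43, 10.12 and 10.46 in wild type hearts (difference -0.41, SE 0.11, limma adjusted p = 0.200).

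Over all 18029 genes, 58 were called upward and 8907 differences were positive. Fibroblast markers had 1 call upward among 8, 7 positive differences and a median of 0.47. Their array medians were 0.29, 0.22 and 0.20 in KO hearts and -0.063, 0.012 and -0.48 in wild type hearts. The call was Col3a1, with 11.67 ± 0.07 in KO hearts and 11.12 ± 0.08 in wild type hearts (SD, n = 3 each, limma adjusted p = 0.0481), which missed the threshold in 9 of 16 alternatives: whenever 1 of the 6 arrays was left out, without KO replicate 1 and wild type replicate 3, with a replicate block (adjusted p = 0.0684) and with the mean of all its probe sets. Macrophage markers had 0 calls among 8, 7 positive differences and a median of 0.28, with array medians of 0.13, 0.086 and 0.17 in KO hearts and -0.18, 0.068 and -0.39 in wild type hearts. Wild type replicate 3, the highest array for the subunits, was the lowest for the fibroblast and the macrophage markers. The 6 endothelial markers had 0 calls and a median of -0.10. The 4 smooth muscle markers had 0 calls and array medians of 0.93, -0.26 and 0.18 in KO hearts and -0.43, -0.42 and -0.11 in wild type hearts, highest in KO replicate 1, the heart with the atrial markers. The 5 atrial markers had 1 call upward, Nppa, a natriuretic peptide that loaded ventricles also make, with 13.78, 13.63 and 13.36 in KO hearts and 12.67, 12.67 and 11.85 in wild type hearts (difference 1.19, SE 0.21, limma adjusted p = 0.0496). It missed the threshold in 10 of 16 alternatives. The part of these shifts in cell markers in the subunit differences was not tested.

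**Figure D4:**
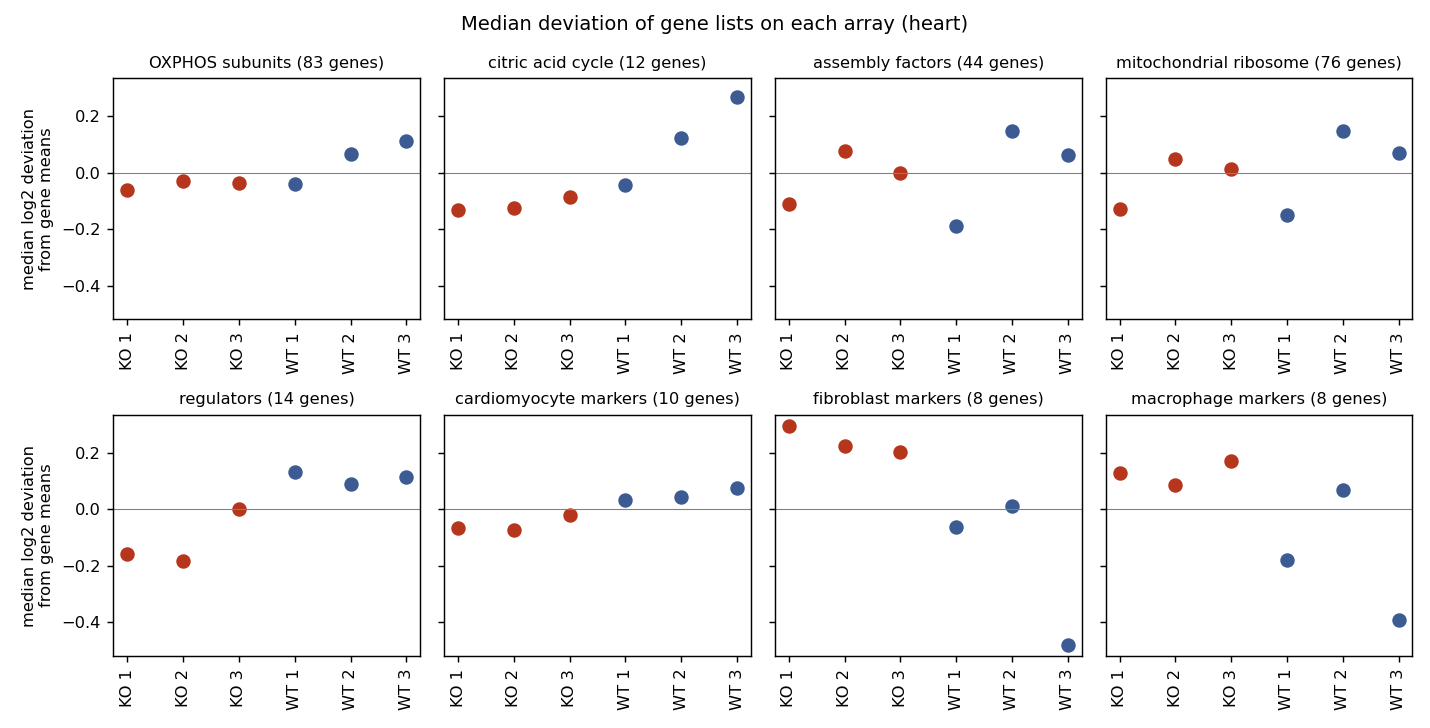
Median log2 deviation of the genes of a list from their means over the 6 arrays (y axis) on each array (x axis, KO arrays left of wild type arrays), one panel per list. Subunits and citric acid cycle enzymes are lowest on the KO arrays and wild type replicate 1, cardiomyocyte markers are lower on every KO array than on every wild type array, and fibroblast markers are higher on every KO array.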

How the data were processed

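The authors deposited log2 signals per probe set from Affymetrix arrays. Per the submitters' processing notes the tools were RMA and limma, whose versions are not given in the sources used here. By design RMA makes array distributions alike, so a shift shared by most genes is removed and differences of very bright genes can be compressed. Of the 38195 probe sets that remained after removal of 13 controls, 34325 had 1 symbol in the platform annotation. Only these were named. The main probe set of a gene is the one with the highest mean over the 6 arrays. KO minus wild type was fitted with limma 3.58.1 in R 4.3.3 (lmFit and eBayes, two-sided, Benjamini-Hochberg over all 38195 probe sets, threshold 0.05), and the code was tested on simulated data. Medians over genes are descriptions with no test. Paralogue differences were compared by exact permutation over the arrays. The labels call the mice separate biological samples, and 3 arrays in each group limit the precision. Scan dates were not analysed here.

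Members, lists and tests were chosen with earlier results of these data known. Genes were named by rule: all Sdh genes, Cyc1, Cycs and both genes of each pair, in each complex the 4 smallest p-values and the extreme differences, any member passing at any probe set, and up to 3 genes per other list. Other members were named after their values were seen. Alternatives were a replicate block, trended, robust and array-weighted fits, other normalizations, a filter, other probe set rules, Ndufa4 and Ndufa4l2 moved to complex IV, and arrays left out. Deviations from group means correlated at 0.060, 0.14 and 0.016 for same-numbered arrays, and at -0.14 to 0.075 for differently numbered arrays. With 3 arrays per group these values cannot decide whether replicate numbers pair the samples. The main fit used no pairing.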

Additional observations from a re-analysis of the deposited data

How the results depend on the processing

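No subunit gene passed the adjusted threshold under any of 16 alternatives. With limma 6 passed downward at an unadjusted p under 0.05 (0 to 13 under the alternatives), where 6.33% of all genes did in the main fit. The 161 probe sets past the threshold became 102 with 1 probe set per gene tested, 29 without KO replicate 1 and wild type replicate 3, and 38 to 86 when each array was left out. A replicate block gave 168 probe sets and changed no call among the subunits, but ended that of Col3a1 (adjusted p = 0.0684). The 22 genes with every KO array below every wild type array became 13 after a second quantile normalization (9.56% of all genes) and 23 to 58 with 1 array left out (13.4% to 15.9% of all genes), the 58 without wild type replicate 1. Negative differences numbered 64 to 76, and the median over all subunits stayed between -0.127 and -0.053. The median of complex II was -0.301 without wild type replicate 1 (-0.301 to -0.153 with 1 array left out). With 1 array left out, those of complexes I, III and V ran from -0.140 to -0.062, -0.137 to -0.047 and -0.127 to -0.063. That of complex IV was -0.014 after a second quantile normalization and -0.081 to -0.030 with 1 array left out. Signs turned for small differences. Cox7a2 became 0.045 after a second quantile normalization, 0.012 without KO replicate 1, 0.012 without wild type replicate 3 and 0.027 without both, and was -0.022 without KO replicate 2. Uqcrb became 0.015 after a second quantile normalization, 0.00022 without KO replicate 1 and 0.011 without both arrays, and ran down to -0.038 with 1 array left out. With 1 array left out, Atp5mpl ran from -0.090 to 0.064 and Cox6b2 from -0.17 to 0.25. Atp5g1 minus Atp5g3 became -0.014 after a second quantile normalization, -0.35 with the mean of all probe sets, -0.014 without KO replicate 2 and -0.059 without wild type replicate 1, and was 0.050 without KO replicate 1 and wild type replicate 3. Cox6b2 minus Cox6b1 was -0.069 without wild type replicate 1 and 0.34 at most with 1 array left out. The 3 muscle minus ubiquitous differences kept their sign in 11 alternatives each: -0.36 to -0.32 for Cox6a2, -0.36 to -0.23 for Cox7a1 and -0.35 to -0.20 for Cox8b. Tmbim1 missed the threshold without KO replicate 2 (difference -0.89) and without KO replicate 1 and wild type replicate 3 (-0.96), and was nearest to 0, at -0.83, without wild type replicate 1. The causes of these changes were not tested.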
